A study of Mus musculus with 4 samples.

Results

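The genes described here encode 10 enzymes of threonine, serine and one-carbon metabolism: Tdh, Gcat, Gldc, Phgdh, Psat1, Psph, Shmt1, Shmt2, Mthfd1l and Mthfd2. They were taken by gene symbol from a list drawn up by pathway, with earlier results of these data known, and make up 10 of the 24421 genes in the count files and 10 of the 19891 genes tested, those with a count in at least 1 library. Gene expression was measured by Illumina TruSeq RNA-Seq of bulk RNA from R1 cells, an established line of mouse embryonic stem cells (ESCs), in 2 states with 2 libraries each. Undiff is R1 cells kept in growth medium with leukaemia inhibitory factor according to the methods, and embryoid bodies before treatment according to the labels. Day4 is embryoid bodies, aggregates formed without that factor and grown for 4 days, then kept a further 4 days with retinoic acid (RA). RA was at 2 µM in the design text and at 2 mM in the sample labels. By the methods, the states therefore differ in the cytokine, in the aggregate form and in time in culture as well as in RA. These cannot be told apart here. By the labels both are embryoid bodies grown for 4 days, and Day4 has the 4 days with RA besides. Neither state carries a genetic change in the labels. Both come from 1 cell line, whose replicates were grown and treated separately according to the methods.

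Serine and glycine are the main donors of single carbon units in mammalian cells. In mouse mitochondria, threonine dehydrogenase (Tdh) oxidizes threonine, and Gcat splits the product into glycine and acetyl-CoA. The glycine cleavage system, whose decarboxylase is Gldc, then passes a carbon of glycine to tetrahydrofolate. Serine is made from a glycolytic intermediate by Phgdh, Psat1 and Psph in turn, and is split to glycine by Shmt1 in the cytosol and Shmt2 in mitochondria, which also load tetrahydrofolate. Mthfd2 and Mthfd1l oxidize and release the mitochondrial unit as formate, which the cytosol uses for purines, thymidylate and methyl groups. Mouse ESCs are known for high Tdh activity and for their dependence on threonine in the medium.

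Library totals on genes ranged from 32099074 to 47730944 counts, so that 3 counts, used as the detection floor, were worth 0.0629 to 0.0935 CPM (counts scaled to the library total). All further CPM values are scaled by TMM as well. The floor covers counting error only. The share of fragments on no annotated gene was 12.1% and 13.2% in Undiff and 7.50% and 7.74% in Day4. Values are normalized counts, which are the counts divided by TMM-scaled library sizes and brought to a common size. A gene was called lower or higher in Day4, written as fell or rose, when its adjusted p-value in edgeR's quasi-likelihood test was at most 0.05, its absolute log2 fold change at least 1 and its mean normalized count at least 5. All 8 markers of pluripotent cells fell, and their summed level went from 3674 and 3771 CPM in Undiff to 22.0 and 18.0 CPM in Day4, with none at 0 in either state. Of 8 neural markers 3 rose and 3 fell (138 and 138 CPM to 147 and 162 CPM), and Neurog2 and Dcx were at or under the floor in Undiff. Of 8 endoderm markers 7 rose and 1 fell (35.4 and 42.0 CPM to 552 and 544 CPM), with Afp at or under the floor in Undiff. Of 8 mesenchyme and fibroblast markers 7 rose, and Thy1 fell (97.0 and 86.6 CPM to 1994 and 1873 CPM). Of 8 proliferation markers 4 fell and none rose (4530 and 4454 CPM to 2005 and 2108 CPM). The part of this change in cell types and in proliferation in the results that follow was not tested. In bulk RNA, fewer cells that express a gene and less RNA per cell cannot be told apart.

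Of the 10 enzymes, 8 fell in Day4 and none rose, where 20.6% of all genes tested were called lower and 22.2% higher. The exceptions were Gcat and Phgdh, whose differences were under the minimum fold. By the adjusted p-value and the minimum count alone, all 10 were lower, against 35.2% of all genes lower and 36.7% higher. In each of the 10, both Day4 libraries were below both Undiff libraries, which held for 42.7% of all genes. The median log2 fold change of the 10 enzymes was -1.86, and that of all genes tested was -0.03. The falls covered a wide range, from 2.12-fold for Shmt2 to 192-fold for Tdh. Summed over the 10 enzymes, expression was 2644 and 2578 CPM in the Undiff libraries and 480 and 486 CPM in the Day4 libraries.

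**Figure D1:**
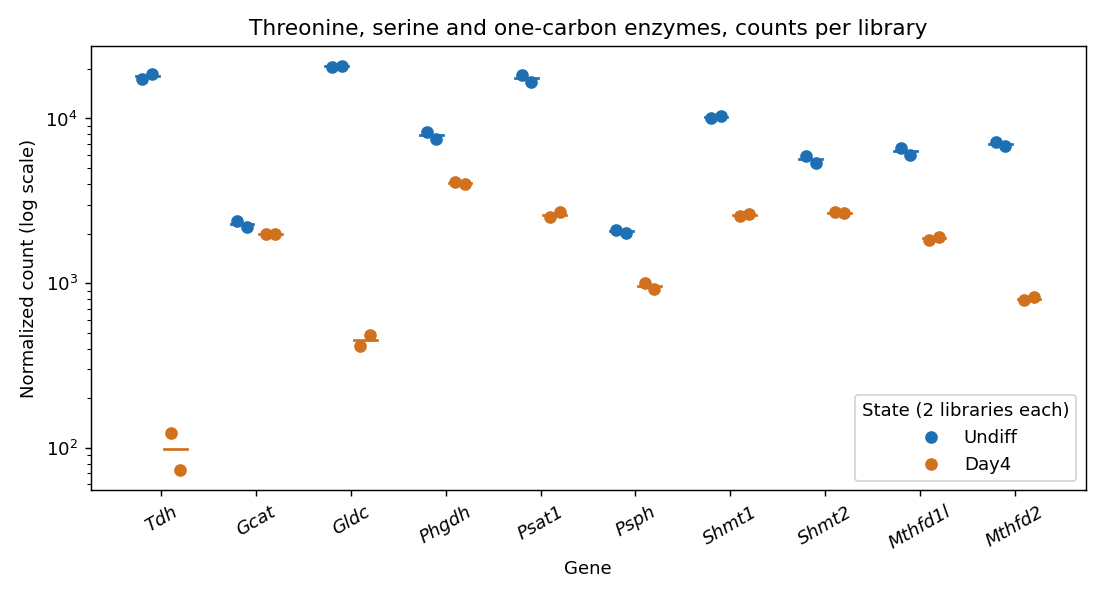
Normalized counts (log scale) of the 10 enzymes in the 2 Undiff and 2 Day4 libraries, with 1 point for each library and a line at the mean of each state. Tdh and Gldc stand among the highest values in Undiff, between 17451 and 20796, and are the lowest of the 10 in Day4, whereas Gcat lies between 1975 and 2375 in both states.

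The proximal promoters of 9 of the 10 enzymes were read from RefSeq (GRCm38.p6), each from 250 bases before to 50 bases after the annotated start, with 2 starts for Psat1. Tdh had no entry. The pentamer CCAAT, searched on both strands, lay in 6 of the 10 windows of these genes (Gldc, Phgdh, 1 of the starts of Psat1, Psph, Shmt1 and Mthfd2), and in 37.4% of all 32851 windows. The E-box CACGTG lay in that of Gcat alone (7.15% of all windows). The composite site TGATGNAA, the form recognized by ATF4, the activator of amino acid synthesis genes, lay in none of the 9 (3.97% of all windows). These matches describe letters and not bound sites. The 120 bases before the start are printed for Gldc and Psat1, which fell strongly, and for Gcat, which did not pass the minimum fold, from 5′ to 3′ on the strand of the gene. Capitals mark CCAAT or its reverse complement.
Gldc, chr19:30175442-30175561, minus strand: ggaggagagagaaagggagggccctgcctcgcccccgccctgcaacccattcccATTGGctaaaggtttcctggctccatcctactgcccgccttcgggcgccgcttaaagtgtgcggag
Psat1, chr19:15925060-15925179, minus strand: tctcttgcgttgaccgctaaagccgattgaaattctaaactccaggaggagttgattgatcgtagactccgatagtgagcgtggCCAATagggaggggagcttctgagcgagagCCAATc
Gcat, chr15:79030754-79030873, plus strand: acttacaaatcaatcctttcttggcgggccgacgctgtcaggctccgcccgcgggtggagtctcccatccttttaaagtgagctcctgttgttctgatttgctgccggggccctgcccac
The stretch from Gldc held 1 match and that from Psat1 held 2, and no GENCODE exon lies in any of the 3 stretches. Among the others, the windows of Psph, Shmt1 and Mthfd2, which fell, held matches, and those of Shmt2 and Mthfd1l, which fell too, held none. That of Phgdh, also under the minimum fold, held matches as well.

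The enzymes of threonine breakdown differed most from each other. Tdh (chr14:63492347-63509092, minus strand, GRCm38) had 17451 and 18752 normalized counts in Undiff and 122 and 72.9 in Day4. It fell by 7.58 on the log2 scale (SE 0.11, adjusted p = 2.95e-15, edgeR), from 18101 ± 920 to 97.6 ± 34.8 (SD, n = 2), so that 0.539% of its Undiff level was left. The Day4 libraries differed 1.68-fold from each other in Tdh, a spread far smaller than the gap between the states, and the fold change stayed between -7.95 and -7.24 when any 1 library was left out. Gcat (chr15:79030874-79038353, plus strand), which carries out the next step, had 2375 and 2196 normalized counts in Undiff and 1981 and 1975 in Day4. Its log2 fold change was -0.21 (SE 0.05, adjusted p = 0.0033, edgeR), and 86.6% of its Undiff level was left. The 2 steps of 1 pathway were thus at 0.539% and 86.6% of their Undiff levels in the same libraries. Of the 19891 genes tested, 128 had a lower log2 fold change than Tdh, and among the 10068 genes with a mean of at least 10 CPM, 30 did.

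The fall of glycine decarboxylase was the next largest of the 10. Gldc (chr19:30098447-30175429, minus strand) had 20616 and 20796 normalized counts in Undiff, the highest count of the 10, and 417 and 481 in Day4. It fell by 5.52 on the log2 scale (SE 0.06, adjusted p = 4.4e-16, edgeR), from 20706 ± 127 to 449 ± 45.1 (SD, n = 2), a 45.8-fold difference. The other proteins of the glycine cleavage system did not share a single change. Amt, the aminomethyltransferase, fell from 2233 ± 9.16 to 711 ± 58.0 normalized counts (SD, n = 2), a log2 fold change of -1.64 (SE 0.06), and Gcsh, the carrier of the lipoyl group, from 9082 ± 425 to 3552 ± 42.4, a log2 fold change of -1.35 (SE 0.05). Dld, the dehydrogenase that also serves the pyruvate and oxoglutarate dehydrogenase complexes, had 5637 and 6090 normalized counts in Undiff and 5792 and 5995 in Day4. Its groups overlapped, and its log2 fold change was 0.01 (adjusted p = 0.88, edgeR).

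**Figure D2:**
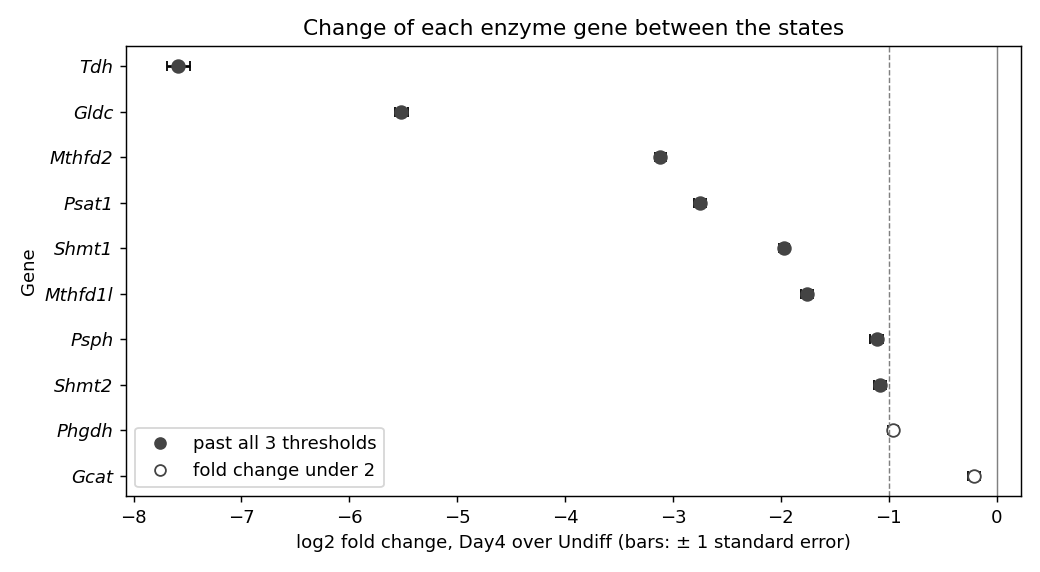
Log2 fold change of each enzyme, Day4 over Undiff, with a bar of 1 standard error to each side, filled where the gene passed all 3 thresholds and open where its change was under the minimum fold (dashed line at -1). All 10 lie below 0, from -7.58 for Tdh to -0.21 for Gcat, and Gcat and Phgdh lie between the dashed line and 0.

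Of the serine synthesis enzymes, the second changed most. Phgdh (chr3:98313170-98339990, minus strand), the dehydrogenase that commits 3-phosphoglycerate to serine, had 8246 and 7520 normalized counts in Undiff and 4101 and 4005 in Day4. Its log2 fold change was -0.96 (SE 0.05, adjusted p = 7.1e-10, edgeR), and it was therefore just short of the minimum fold, whereas without Undiff replicate 2 the value was -1.03 and passed it. Psat1 (chr19:15904678-15947337, minus strand), the aminotransferase, had 18403 and 16664 normalized counts in Undiff and 2503 and 2699 in Day4. It fell by 2.75 on the log2 scale (SE 0.06, adjusted p = 7.0e-14, edgeR), a 6.73-fold difference. Psph (chr5:129765558-129787449, minus strand), the phosphatase that releases serine, fell from 2060 ± 45.5 to 958 ± 52.3 normalized counts (SD, n = 2). Its log2 fold change was -1.11 (SE 0.06, adjusted p = 9.0e-10, edgeR). None of the 3 had overlapping groups. Over 452 bases, 10.4% of its exon length, Psph overlaps exons of Cct6a on the opposite strand, a chaperonin gene with 32081 ± 687 normalized counts in Undiff that fell too (log2 fold change -1.16, SE 0.04), and the methods name ONT Direct RNA, not TruSeq, as counted by strand on genes, without giving the TruSeq setting. A pseudogene of Phgdh is annotated, and the authors counted uniquely aligned fragments alone.

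Both serine hydroxymethyltransferases fell, the cytosolic one more. Shmt1 (chr11:60788104-60811718, minus strand) had 10053 and 10339 normalized counts in Undiff and 2565 and 2632 in Day4. It fell by 1.97 on the log2 scale (SE 0.04, adjusted p = 1.55e-13, edgeR), a 3.92-fold difference. Shmt2 (chr10:127517123-127522444, minus strand), the mitochondrial enzyme, had 5943 and 5378 normalized counts in Undiff and 2690 and 2662 in Day4. It fell by 1.08 on the log2 scale (SE 0.05, adjusted p = 3.8e-10, edgeR), a 2.12-fold difference. Per exon length, the ratio of Shmt2 to Shmt1 was 0.738 and 0.650 in the Undiff libraries and 1.31 and 1.26 in the Day4 libraries, so that the order of the pair was turned in both. Shmt1 and Shmt2 share 184 and 32 exon bases (4.74% and 1.03% of their exons) with Smcr8 and Ndufa4l2 on the opposite strand, whose log2 fold changes were 0.38 and -1.73.

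The mitochondrial folate enzymes fell as well. Mthfd2 (chr6:83305691-83325908, minus strand), the mitochondrial methylenetetrahydrofolate dehydrogenase and cyclohydrolase, had 7158 and 6838 normalized counts in Undiff and 783 and 828 in Day4. It fell by 3.12 on the log2 scale (SE 0.05, adjusted p = 1.6e-14, edgeR), an 8.67-fold difference. Mthfd1l (chr10:3973118-4167081, plus strand), the synthetase that releases formate, had 6645 and 6005 normalized counts in Undiff and 1824 and 1913 in Day4, and fell by 1.76 (SE 0.06, adjusted p = 5.1e-12, edgeR). Mthfd1, the cytosolic enzyme that takes formate up again, fell from 13273 and 12909 to 2767 and 2997 normalized counts (log2 fold change -2.18, SE 0.05). Mthfd2l, the mitochondrial paralogue of Mthfd2, rose from 214 and 207 to 503 and 524 normalized counts (log2 fold change 1.29, SE 0.09). The paralogues thus moved in opposite directions, with no overlap of the groups in either.

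Levels of different enzymes were compared as TMM-normalized CPM per kilobase of exon. In Undiff the order from the highest was Tdh (184.9), Psat1 (110.1), Gldc (90.8), Phgdh (84.7), Shmt1 (70.1), Mthfd2 (53.6), Shmt2 (48.6), Mthfd1l (38.1), Gcat (25.6) and Psph (12.7), and no neighbours in this order overlapped between their libraries. In Day4 it was Phgdh (43.5), Shmt2 (23.0), Gcat (22.2), Shmt1 (17.9), Psat1 (16.3), Mthfd1l (11.3), Mthfd2 (6.17), Psph (5.91), Gldc (1.97) and Tdh (0.997), and only Mthfd2 and Psph overlapped. Tdh thus went from the first place to the last, Phgdh from the fourth to the first, and Gcat from the ninth to the third. These places rest on GENCODE exon lengths, and the lengths in the annotation the authors counted on may differ. Gcat has 2 GENCODE entries under its symbol, and its length is that of the entry with the lower identifier. The spread between libraries does not cover this.

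**Figure D3:**
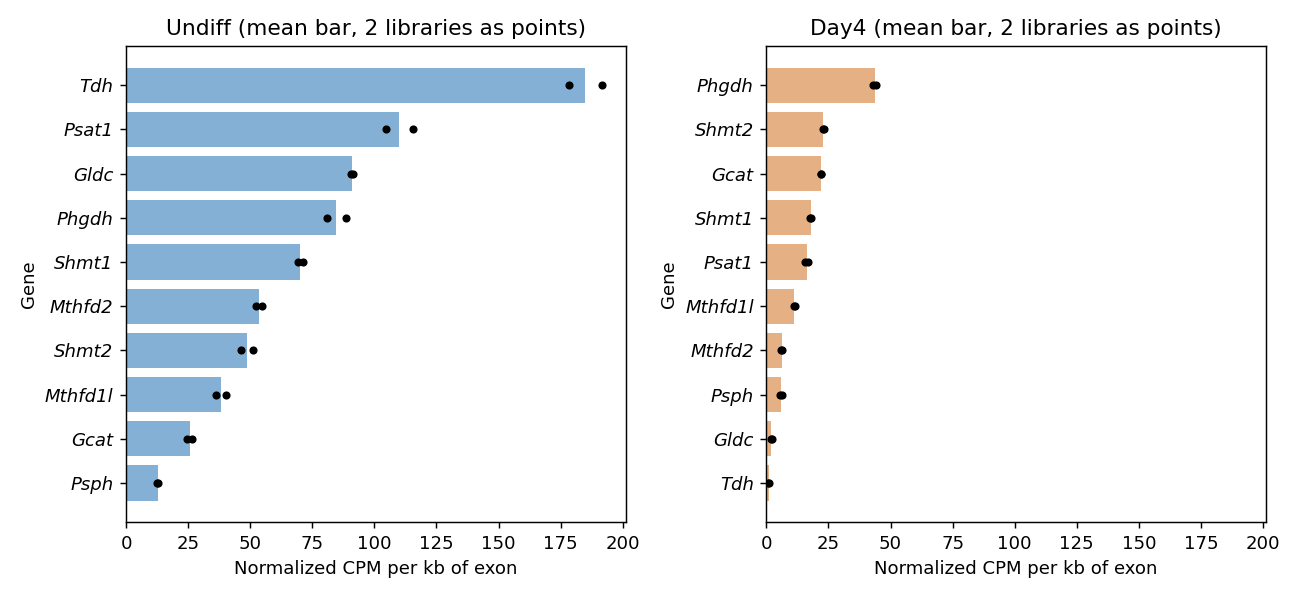
Levels of the 10 enzymes in TMM-normalized CPM per kilobase of exon (linear scale, the same in both panels), sorted within Undiff and within Day4, with bars for the mean and points for the 2 libraries of each state. Tdh is highest in Undiff (184.9) and lowest in Day4 (0.997), where Phgdh is highest (43.5).

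Ratios within a library do not depend on how libraries are scaled to each other. Their level, and so the order of a pair, depends on the GENCODE exon lengths, whereas their change between the states does not. Besides Shmt2 over Shmt1, 7 ratios per exon length were computed, between enzymes of the same reaction or of the same pathway, and in all 8 the groups did not overlap. The share of other gene pairs without overlap was not computed, and the pairs were chosen with earlier results of these data known. Each of the 8 had an exact permutation p of 0.333, two-sided, which is the smallest that 2 libraries against 2 can give and stays 0.333 after adjustment over the 8. Mthfd2 was 63.9 and 63.0 times its paralogue Mthfd2l in Undiff and 2.97 and 3.01 times in Day4, a log2 difference of -4.41 with SDs of 0.01 in each state. Mthfd1l over Mthfd1 was 0.501 and 0.466 in Undiff and 0.660 and 0.639 in Day4, the smallest of the 8 differences (0.43 on the log2 scale).

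The other 5 ratios set enzymes of 1 pathway against each other. Gcat over Tdh was 0.149 and 0.128 in Undiff and 17.8 and 29.7 in Day4, a log2 difference of 7.37 with SDs of 0.15 and 0.52. Psat1 over Phgdh was 1.30 and 1.29 in Undiff and 0.357 and 0.394 in Day4. Psat1 over Psph was 8.95 and 8.36 in Undiff and 2.56 and 2.98 in Day4. Gldc over Amt was 3.70 and 3.71 in Undiff and 0.249 and 0.256 in Day4, and Gldc over Gcsh was 0.609 and 0.575 in Undiff and 0.0307 and 0.0348 in Day4. The order of the pair was turned for Gcat and Tdh, for Psat1 and Phgdh and for Gldc and Amt, and was kept for Psat1 and Psph and for Gldc and Gcsh.

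**Figure D4:**
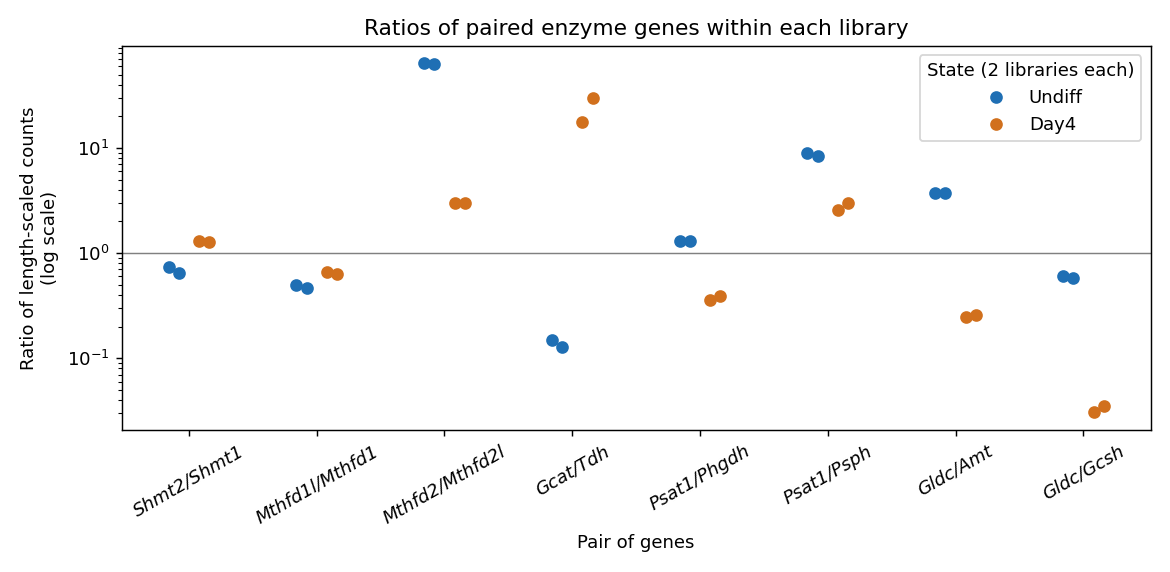
Ratios per exon length of 8 enzyme pairs in each library (log scale), Undiff and Day4. The largest shifts are Gcat over Tdh, from 0.149 and 0.128 to 17.8 and 29.7, and Mthfd2 over Mthfd2l, from 63.9 and 63.0 to 2.97 and 3.01.

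Around these enzymes, 58 genes of neighbouring pathways were listed, with earlier results of these data known. Of these 30 fell, 5 rose and 23 were not called, where 20.6% of all genes tested were called lower and 22.2% higher. Of 14 genes of the folate cycle and folate transport, 5 fell and 1 rose, Mthfd2l, with a median log2 fold change of -0.71. The lowest was Folr1, a folate receptor, with 1245 and 1374 normalized counts in Undiff and 60.6 and 58.4 in Day4 (log2 fold change -4.46, SE 0.11). Tyms, which makes thymidylate, had a log2 fold change of 0.08 (adjusted p = 0.18, edgeR), and Slc46a1, the proton-coupled folate transporter, one of 0.05 (adjusted p = 0.61, edgeR). Of 6 enzymes of purine synthesis, which takes up 10-formyl-tetrahydrofolate, 4 fell and none rose, with a median of -1.65. The furthest was Gart, which uses that cofactor, from 29141 and 27766 to 5054 and 5327 normalized counts (log2 fold change -2.45), and the least far of the called was Atic (-1.36).

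Of 12 genes of the methionine cycle and of transsulfuration, 8 fell and 1 rose, and the median log2 fold change was -1.88, or -1.31 with the genes that 1 state held at the floor set to their bounds. Cbs, which joins serine to homocysteine, had 1501 and 1408 normalized counts in Undiff and 43.9 and 30.7 in Day4, the lowest fold change of the list (-5.32, SE 0.12). Nnmt, which uses the methyl donor S-adenosylmethionine on nicotinamide, went against the list. It had no count in either Undiff library and 19 counts in each Day4 library, at least 5.13-fold higher by the mean of the floors of the libraries. Bhmt, which remethylates homocysteine with betaine, was at or under the floor in both Day4 libraries, and so at least 3.84-fold lower.

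Of 15 genes that carry or use serine, threonine or glycine, 6 fell and 3 rose, with a median of -0.79. Slc7a5, the light chain of a large neutral amino acid transporter that takes up threonine among others, had 20572 and 20581 normalized counts in Undiff and 1571 and 1535 in Day4 (log2 fold change -3.73). The 3 that rose were Slc6a9, a glycine transporter (348 and 272 to 717 and 690 normalized counts), Srr, the serine racemase (145 and 160 to 840 and 865), and Sdsl, related to serine dehydratase, which had only 2 and 4 counts in Undiff and 26 and 36 in Day4. Exons of Slc6a9 overlap B4galt2 and Ccdc24 on the opposite strand, and those of Srr overlap Smg6 and Tsr1. The size of these overlaps was not computed. Sds, the serine dehydratase, had between 5 and 10 counts in every library (adjusted p = 0.59, edgeR). Of 8 genes for ATF4 and targets of the amino acid response, 5 fell and none rose, with a median of -1.21. Chac1, which degrades glutathione, was lowest (log2 fold change -3.77) and Sesn2 the least far of the called (-1.06). Ddit3, Ddit4 and Pck2 had log2 fold changes of 0.38, 0.61 and 0.33 (adjusted p = 0.018, 0.0014 and 0.00066, edgeR). All 3 were under the minimum fold. By the adjusted p-value and the minimum count alone they were higher, which held for 36.7% of all genes tested.

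**Figure D5:**
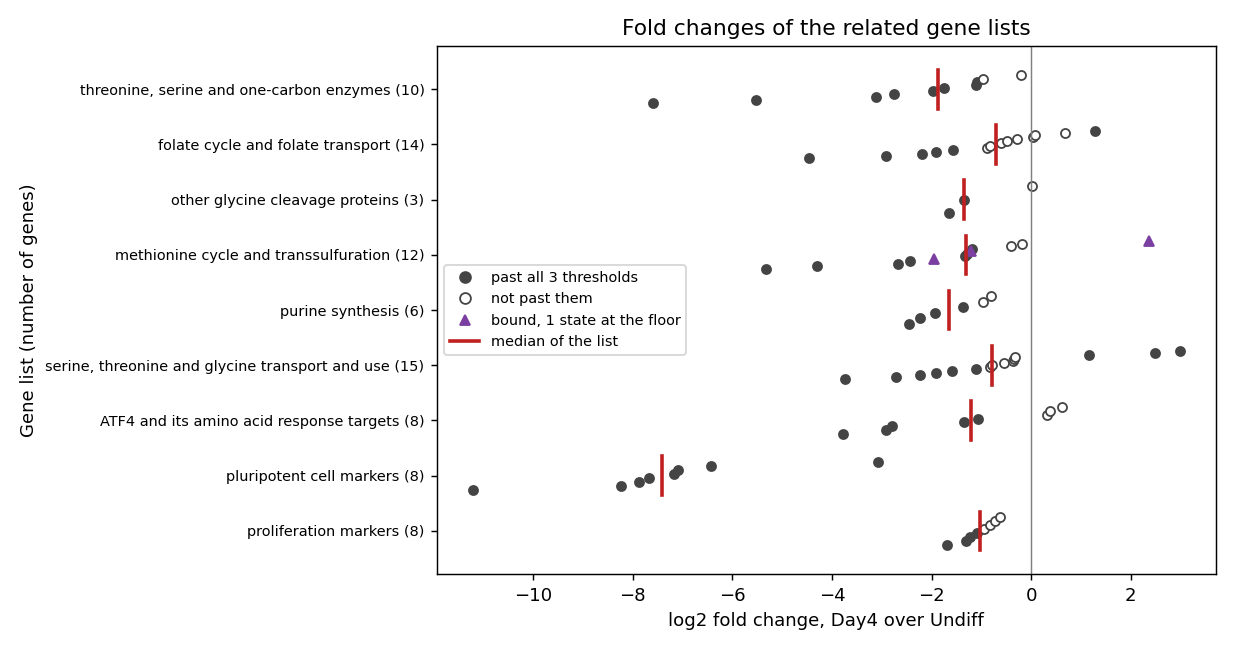
Log2 fold changes, Day4 over Undiff, of the 10 enzymes, of 6 lists of related genes and of the pluripotent and proliferation markers, with 1 point for each gene and the median of each list as a line. Triangles are lower bounds on the size of the change, for genes that 1 state held at the floor. The medians are -1.86 for the enzymes, -1.65 for purine synthesis, -1.02 for the proliferation markers and -7.42 for the pluripotent markers. Tdh (-7.58), Gldc (-5.52) and Mthfd2 (-3.12) lie within the range of the pluripotent markers (-11.2 to -3.07), and the other enzymes lie above it. The upper end of that range is Klf4 alone, and the next marker is Nanog (-6.43). Gldc and Mthfd2 lie above all of these markers but Klf4.

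The genes whose pattern was most like that of Tdh were found among 10067 genes with a mean of at least 10 CPM, by the Euclidean distance over the 4 libraries in log2 normalized count after taking off the Undiff mean of each gene. They were AU018091 (distance 0.0611), Gm13242 (0.190), Fgfbp1 (0.210), Lincenc1 (0.245) and Tcl1 (0.375), with log2 fold changes between -7.76 and -7.43. AU018091 had 5742 and 6304 normalized counts in Undiff and 39.7 and 24.6 in Day4. Like Tdh it was higher in Day4 replicate 1 than in replicate 2, a difference that the distance itself takes in. These distances describe 4 libraries and carry no test. None of the 10 enzymes is among the 5.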

How the data were processed

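RNA of R1 mouse ESCs was sequenced as 2 Undiff and 2 Day4 Illumina TruSeq libraries. Reads were trimmed (cutadapt), aligned to mm10 (STAR, 2.4.2a in the submitters' processing notes) and counted per gene from unique alignments (HTSeq) by the authors. The deposited counts are whole numbers, 1 per gene symbol, and are not normalized. The summary lines for fragments on no gene (7.50% to 13.2%) and on several genes (1.84% to 1.91%) were left out of library sizes and tests.

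Counts were normalized by TMM (factors 0.975 to 1.03) and tested for 19891 genes with edgeR 4.0.16 in R 4.3.3 (glmQLFit with its current estimate of the dispersion, glmQLFTest, Benjamini-Hochberg adjustment), without a replicate term. The thresholds are those of the methods of the study, which used DESeq2. edgeR estimated a common dispersion of 0.00134 (biological coefficient of variation 3.66%). The SE of a log2 fold change is its size over the square root of F. Floors were 3 counts per library. The test was first tried on simulated counts with known changes. The enzymes and gene lists were chosen with earlier results of these data known, as were the pairs for ratios.

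Named by rule were the 10 enzymes, the partners of Gldc, Mthfd1 and Mthfd2l, and of each list the highest and lowest called gene, genes called against their list and genes with an adjusted p above 0.05. Bhmt and the genes of the ATF4 list under the minimum fold were named after their values were seen. Positions and exon lengths are from GENCODE vM21 (GRCm38), matched by symbol, and promoters from RefSeq (GRCm38.p6). The annotation the authors counted on may differ. Long-read libraries were not analysed here, and 1 neural marker is not reported here by its own values.

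Alternatives were DESeq2 1.42.0 with and without shrinkage, DESeq2 size factors, library totals, filterByExpr, no minimum fold change, a replicate block and leaving out each library, and, chosen after seeing the data, the earlier quasi-likelihood estimate of edgeR. The current estimate was made the main one after the earlier one, the default, gave infinite prior degrees of freedom on these counts. That choice too was made with the data seen.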

Additional observations from a re-analysis of the deposited data

How the results depend on the processing

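Of the 110 log2 fold changes of single enzymes under the alternatives, 109 kept their direction and their side of the thresholds. The exception was Phgdh, which passed the minimum fold without Undiff replicate 2 (-1.03). The number of enzymes called was 8 in the other alternatives with a minimum fold, 9 in that one, and 10 with no minimum fold change. That last setting raised the genes called from 8521 to 14309 and the genes called on the neighbouring pathway lists from 35 to 53, as it removes a threshold. Leaving out each library gave between 8306 and 8410 genes called, 35 on the pathway lists, and 8 to 9 of the enzymes. Here the state with 1 library left is assumed to vary like the other. Changes of scaling moved the median log2 fold change by at most 0.067. Depth limits Tdh little, with 117 and 95 counts in Day4, and limits Bhmt, Bhmt2, Mat1a, Nnmt, Sds and Sdsl, which are near the floor in a state.

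Undiff and Day4 use the same replicate numbers, which pair nothing in the methods, and the deviations of same-numbered libraries had a correlation of -0.01 across 16472 genes. With the replicate number as a block, 8515 genes were called, 35 on the pathway lists and 8 enzymes.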
